A study of Homo sapiens with 9 samples.

Results

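The genes of the Polycomb repressive complexes EZH2, EZH1, SUZ12, EED, JARID2, RING1, RNF2, BMI1, CBX2 and CBX7 were examined in PC-3 cells. These 10 genes were found by matching their symbols to the Ensembl identifiers of the count files, where they make up 10 of 60617 rows. All 10 were among the 18532 genes with enough counts to be tested. PC-3 is an established human cell line of castration-resistant prostate cancer, grown here in RPMI1640 medium. The 9 RNA-seq libraries fell into 3 groups of 3, which were control cells given the vehicle, cells treated with decitabine at 1 µM, and cells treated with the same dose of decitabine and with S-adenosylmethionine (SAM) at 200 µM. The last group is called the combination. The labels state a treatment of 5 days for the extraction of DNA and do not state the day of RNA isolation. They also do not say whether the 3 libraries of a group came from separate cultures, so p-values measure only the spread between these libraries, which may be technical. Libraries of SAM as the single agent are not used here.

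Polycomb proteins silence genes through marks on histones. The Polycomb repressive complex 2 (PRC2) places methyl groups on lysine 27 of histone H3, with SAM as the methyl donor, and the Polycomb repressive complex 1 (PRC1) attaches ubiquitin to histone H2A and compacts chromatin. In prostate cancer, EZH2 is known to be high in advanced disease, and both Polycomb marks and DNA methylation can silence promoters that contain many CpG sites. Decitabine is a cytidine analogue that is built into DNA and traps DNA methyltransferases.

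The promoters of the members were rich in CpG sites. Promoter entries of RefSeq run from 250 bases before to 50 bases after a gene's start in the assembly GRCh38.p14. Of these, 12 entries matched 9 members, which were EZH2, EZH1, SUZ12, EED, JARID2, RING1, RNF2, BMI1 and CBX7. The number of CpG sites in these 300 bases was 16 for EED and between 24 and 65 for the other entries, whereas the median of all 35116 promoters was 14 with quartiles of 4 and 28. The promoters were also searched on both strands for the letters TTTCCCGC, TTTCGCGC, TTTGCCGC and TTTGGCGC, which E2F factors, the regulators of genes for DNA replication, are known to recognise. A match was present in 3.31% of all promoter entries, and in 800 of the 12866 tested genes with an entry. Neither background is matched for CpG sites, in which the members' promoters are rich. Among the members a match was present in EZH1, SUZ12 and 1 of the 2 entries of EZH2. These are the members of PRC2 that were lower in treated cells. The search was made after the values of these genes had been seen, and a match is a description and not evidence of binding. The stretches below are 120 bases of each of these promoters, 5′ to 3′ on the strand of the gene, with the match in capitals. They are chr7:148884272-148884391 on the minus strand for EZH2, chr17:42745092-42745211 on the minus strand for EZH1 and chr17:31936762-31936881 on the plus strand for SUZ12.
EZH2: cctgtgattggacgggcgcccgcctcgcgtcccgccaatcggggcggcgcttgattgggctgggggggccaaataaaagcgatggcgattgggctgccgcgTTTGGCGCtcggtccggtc
EZH1: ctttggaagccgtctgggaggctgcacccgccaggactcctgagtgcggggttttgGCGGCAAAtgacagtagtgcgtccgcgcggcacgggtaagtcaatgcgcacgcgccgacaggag
SUZ12: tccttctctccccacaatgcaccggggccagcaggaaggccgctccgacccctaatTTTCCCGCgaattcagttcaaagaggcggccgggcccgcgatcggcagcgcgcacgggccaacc
Counting the first base of the RefSeq transcript as 0, the match began at 1 in EZH2, at -115 in EZH1 and at -189 in SUZ12, and in EZH1 it was read on the opposite strand.

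Library totals lay between 21934307 and 22489684 estimated counts. Levels are given as CPM, the count of a gene relative to the scaled library total, with scaling by the trimmed mean of M-values (TMM). The scaling factors were between 0.8948 and 0.9021 in controls and between 1.033 and 1.078 in treated libraries. A gene was called higher or lower where the adjusted p of edgeR's quasi-likelihood test, with Benjamini-Hochberg adjustment over all genes tested, was under 0.05. Without TMM, with library size as the only scaling, the median over all genes of the log2 fold change shifted upwards, for decitabine from 0.03 to 0.28 and for the combination from 0.05 to 0.27. The share of calls that were higher went from 52.7% to 70.3% in the former comparison and from 53.4% to 69.3% in the latter. The line was checked against markers. KRT8, KRT18, VIM, CD44 and CAV1, which PC-3 cells are known to express, were all present, with a summed level between 1680 and 2400 CPM, while KLK3, which encodes the prostate-specific antigen of luminal cells, had 0 counts in all 9 libraries. Of 8 markers of blood and stromal cells, 6 were tested. Of these, 5 were higher and 0 lower with each treatment, at adjusted and unadjusted p under 0.05 alike. Among all genes, 36.3% were called higher and 32.5% lower with decitabine, and 35.9% and 31.3% with the combination. PTPRC had 5, 75 and 51 counts and DCN 2, 78 and 90 counts in controls, decitabine and combination libraries. These 2 genes had enough counts to be tested only in treated libraries, so they could hardly be called lower against control. The summed level of the 8 markers was 51.1 to 62.8 CPM in controls, 307 to 399 in decitabine libraries and 185 to 274 in combination libraries. Most of it came from CD68 and COL1A1, whereas CD3E had 0, 3 and 1 counts and CDH5 5, 19 and 26 counts in the 3 groups. The part of these markers in the Polycomb results was not tested, and in bulk RNA fewer cells of a type cannot be told apart from less RNA per cell.

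With decitabine, 4 of the 10 Polycomb genes were lower than in controls and 2 were higher. EZH1 fell the most, to 0.4 of its control level, followed by EZH2, CBX2 and SUZ12, while CBX7 and RNF2 rose. EED, JARID2, RING1 and BMI1 did not pass the test. Among all genes tested, 32.5% were called lower and 36.3% higher in this comparison, so the number of members called is near the background, and the members are described for their identity and the size of their change. With the combination, the same 4 genes were lower and only RNF2 was higher, against 31.3% of all genes lower and 35.9% higher. Between the combination and decitabine, 1 member, BMI1, was higher and 0 were lower, against 7.67% of all genes higher and 8.02% lower. No member was lower there at an unadjusted p under 0.05 either, and DESeq2 and voom with limma also called 0 lower. The comparisons with control share the control libraries, so their likeness is not independent.

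**Figure D1:**
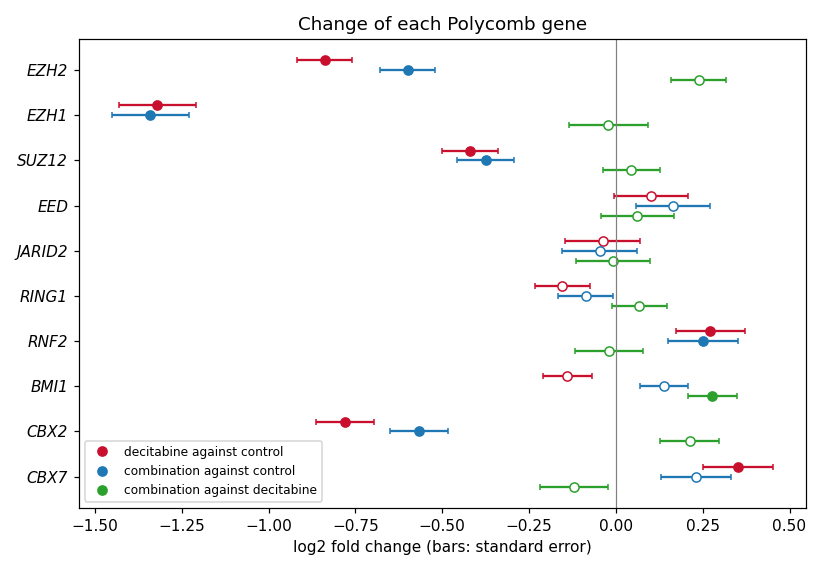
Log2 fold changes of the 10 Polycomb genes (horizontal axis) with their standard errors as bars, by comparison in colours, with filled points for genes called and open points for the others. EZH1, EZH2, CBX2 and SUZ12 lie left of 0 in both comparisons with control, and BMI1 has the only filled point between the treatments.

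The median log2 fold change of the 10 members was -0.15 with decitabine, -0.07 with the combination and 0.05 between the treatments, beside 0.03, 0.05 and 0.00214 for all genes tested. With library size as the only scaling, the members' median turned to 0.10 and 0.16 against control, with 3 higher and 3 lower with decitabine and 4 higher and 3 lower with the combination. The typical size of the change, as the median of the absolute log2 fold change, was 0.31 for the members and 0.56 for all genes with decitabine, 0.24 and 0.55 with the combination, and 0.06 and 0.20 between the treatments. The groups did not overlap for 7 of 10 members with decitabine, where this held for 72.9% of all genes, and for 7 of 10 with the combination, where it held for 71.6%. Between the treatments 2 of 10, EZH2 and BMI1, did not overlap, against 34% of all genes.

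**Figure D2:**
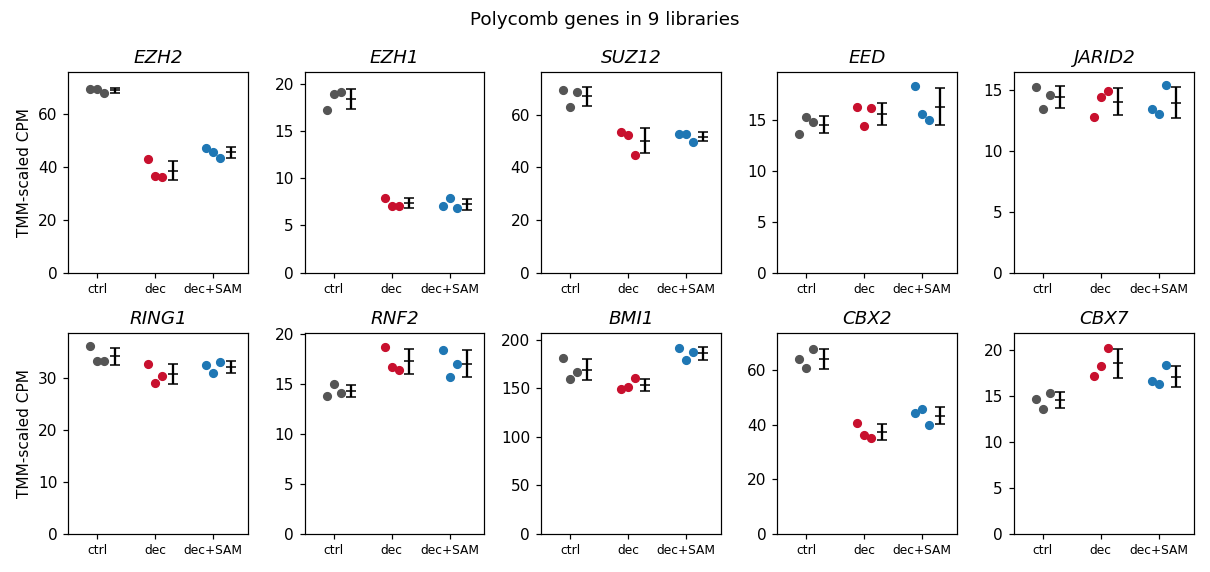
TMM-scaled CPM (vertical axis, from 0) of each Polycomb gene in the 9 libraries, grouped as control, decitabine (dec) and the combination (dec+SAM), with the mean and SD of each group as bars. EZH2, EZH1, SUZ12 and CBX2 sit lower in all 6 treated libraries than in the controls, with EZH1 at 6.81 to 7.94 CPM in treated cells.

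EZH2 (ENSG00000106462, chromosome 7, 148807257 to 148884321, minus strand, GRCh38) encodes the main catalytic subunit of PRC2 in dividing cells. It measured 69.7, 69.6 and 68 CPM in the control libraries, 42.9, 36.6 and 36.4 CPM with decitabine, and 47.4, 45.9 and 43.5 CPM with the combination. The 3 groups did not overlap, with controls highest, decitabine lowest and the combination between them. The log2 fold change was -0.84 (SE 0.08, edgeR adjusted p = 4.2e-07) with decitabine and -0.60 (SE 0.08, edgeR adjusted p = 1.1e-05) with the combination, and both calls held in every alternative run except a threshold of 1 on the log2 fold change. The difference between the treatments, 0.24 on the log2 scale (SE 0.08), did not pass (edgeR adjusted p = 0.055), but it passed in some alternatives, such as without decitabine library 1, at 0.32 (adjusted p = 0.025), and without combination library 3, at 0.27 (adjusted p = 0.036). It also passed when the replicate number was added to the fit. Genes of cell division moved with EZH2. Of 22 proliferation genes, 20 were lower and 0 higher with decitabine by edgeR, against 32.5% and 36.3% of all genes. The same counts of proliferation genes held at an unadjusted p under 0.05. Their summed level was 2910 to 3290 CPM in controls, 1580 to 2020 in decitabine libraries and 1890 to 2270 in combination libraries, and its part in the EZH2 result was not tested.

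EZH1 (ENSG00000108799, chromosome 17, 42700275 to 42745049, minus strand) encodes the other catalytic subunit, which is known for its use in cells that divide little. Its control libraries had 17.2, 18.9 and 19.1 CPM, the decitabine libraries 7.94, 7.03 and 7.1, and the combination libraries 7.04, 7.91 and 6.81. All 6 treated libraries lay far below the controls and the treated groups overlapped each other. The log2 fold change was -1.32 (SE 0.11, edgeR adjusted p = 1.2e-07) with decitabine and -1.34 (SE 0.11, edgeR adjusted p = 1.1e-07) with the combination, the only change over 1 on the log2 scale among the members.

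Because both enzymes fill the same place in PRC2, their ratio within each library was taken, which needs no scaling between libraries. Per kilobase of the canonical transcript, EZH2 was 7.07, 6.43 and 6.2 times the level of EZH1 in controls, 9.44, 9.08 and 8.94 times with decitabine, and 11.7, 10.1 and 11.2 times with the combination. Without division by length the ratio of counts was 3.55 to 4.05 in controls, 5.12 to 5.41 with decitabine and 5.8 to 6.73 in the combination libraries, so the size of the ratio depends on the length used while the differences between groups on the log2 scale do not. The groups did not overlap, and the ratio was highest in the combination libraries. The mean log2 ratio was 0.48 above control with decitabine, 0.75 above control with the combination and 0.26 above decitabine with the combination. An exact two-sided permutation test gave p = 0.1 for each, the smallest p that 3 libraries against 3 allow.

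**Figure D3:**
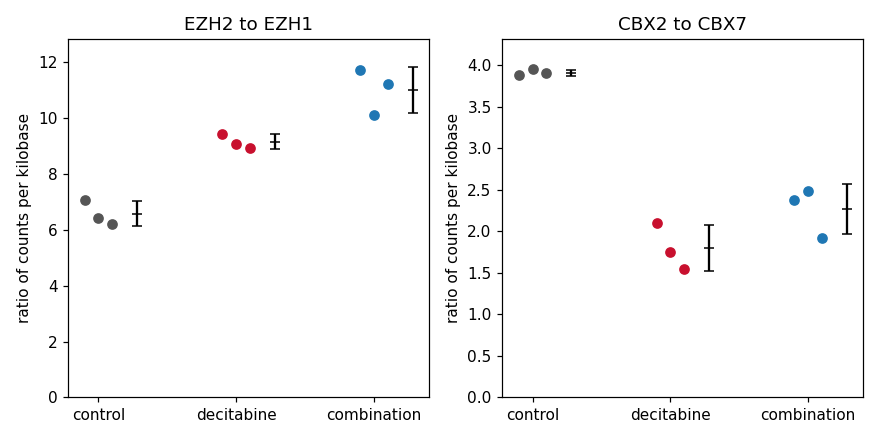
Ratio of EZH2 to EZH1 (left) and of CBX2 to CBX7 (right), in counts per kilobase of transcript (vertical axes, from 0), in the 3 libraries of each group, with mean and SD as bars. The first ratio climbs from at most 7.07 in controls to at least 10.1 in the combination libraries, and the second is at least 3.88 in controls and at most 2.49 in treated libraries.

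SUZ12 (ENSG00000178691, chromosome 17, 31937007 to 32001038, plus strand) encodes the scaffold subunit that PRC2 needs for its stability. It measured 69.5, 62.9 and 68.7 CPM in controls, 53.5, 52.1 and 44.7 with decitabine, and 52.8, 52.5 and 49.6 with the combination. Every treated library was below every control library, while the treated groups overlapped. The log2 fold change was -0.42 (SE 0.08, edgeR adjusted p = 0.00035) with decitabine and -0.38 (SE 0.08, edgeR adjusted p = 0.00089) with the combination. With library size as the only scaling these became -0.17 (adjusted p = 0.061) and -0.15 (adjusted p = 0.093) and were no longer called. Of the 31-base words of its canonical transcript, 12.7% also occur in the partial copy SUZ12P1, which had 5.36 ± 0.238 CPM in controls (SD, n = 3), and after summing both genes the log2 fold changes were -0.40 and -0.37, still called.

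EED (ENSG00000074266, chromosome 11, 86201212 to 86278813, plus strand) encodes the subunit that binds methylated H3. Its level was 13.6, 15.3 and 14.8 CPM in controls, 16.3, 14.4 and 16.2 with decitabine, and 18.4, 15.6 and 15 with the combination, with overlap between the controls and both treated groups. The log2 fold changes of 0.10 (SE 0.11, edgeR adjusted p = 0.41) and 0.16 (SE 0.11, edgeR adjusted p = 0.19) did not pass. Under library size alone they were 0.35 (adjusted p = 0.009) and 0.38 (adjusted p = 0.005). JARID2 (ENSG00000008083, chromosome 6, 15246069 to 15522042, plus strand), an accessory subunit that helps bring PRC2 to chromatin, was the least changed member. It had 15.2, 13.4 and 14.6 CPM in controls, 12.8, 14.4 and 14.9 with decitabine, and 13.4, 13 and 15.4 with the combination, and all 3 groups overlapped. Its log2 fold changes were -0.04 and -0.05 against control, and 0.21 and 0.18 under library size alone.

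RING1 and RNF2 encode the E3 ubiquitin ligases of PRC1, of which each complex holds 1. RNF2 (ENSG00000121481, chromosome 1, 185045526 to 185102603, plus strand) measured 13.8, 15 and 14.1 CPM in controls, 18.7, 16.7 and 16.4 with decitabine, and 18.4, 15.7 and 17 with the combination. All treated libraries lay above the controls. The log2 fold change was 0.27 (SE 0.10, edgeR adjusted p = 0.025) with decitabine and 0.25 (SE 0.10, edgeR adjusted p = 0.037) with the combination. Without a filter on low counts neither call passed (adjusted p = 0.11 and 0.14). Of the calls with the filter, the first was lost without control library 1 (adjusted p = 0.079), control library 3 (0.07) or decitabine library 1 (0.11), and the second without any 1 of control libraries 1, 2 and 3, decitabine library 2 or combination libraries 1 and 3 (adjusted p between 0.054 and 0.16). RING1 (ENSG00000204227, chromosome 6, 33208500 to 33212722, plus strand) measured 36.1, 33.2 and 33.2 CPM in controls, 32.8, 29 and 30.4 with decitabine, and 32.5, 30.9 and 33.1 with the combination. Its treated libraries lay just below the controls without overlap, but the log2 fold changes of -0.16 (edgeR adjusted p = 0.096) and -0.09 (edgeR adjusted p = 0.34) did not pass, and both were above 0 under library size alone, at 0.09 and 0.14. Without decitabine library 1 the first was called, with a log2 fold change of -0.21 (adjusted p = 0.047). The ratio of RNF2 to RING1 per kilobase was 0.196 to 0.231 in controls, 0.276 to 0.295 in decitabine libraries and 0.259 to 0.29 in combination libraries.

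BMI1 (ENSG00000168283, chromosome 10, 22321099 to 22331484, plus strand), also called PCGF4, encodes a partner of the E3 ligases that is known for repressing cell-cycle inhibitors and keeping stem cells dividing. It was the most abundant member, at 181, 160 and 167 CPM in controls, 149, 151 and 161 with decitabine, and 192, 179 and 188 with the combination. The combination libraries were above all decitabine libraries, whereas the controls overlapped both. The log2 fold change between the treatments was 0.28 (SE 0.07, edgeR adjusted p = 0.017), and neither difference from control passed, at -0.14 (edgeR adjusted p = 0.089) with decitabine and 0.14 (edgeR adjusted p = 0.094) with the combination. Under library size alone the value with decitabine turned to 0.11 and that with the combination was 0.36 (adjusted p = 0.00046), and without control library 1 the latter was 0.18 (adjusted p = 0.048). The call between the treatments was lost without decitabine library 1 (adjusted p = 0.059), decitabine library 2 (0.083), combination library 1 (0.061) or combination library 2 (0.052), with values of 0.25 to 0.31 over all left-out libraries.

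The annotation places a read-through gene, COMMD3-BMI1, across BMI1 and its upstream neighbour COMMD3, which encodes a protein of endosomal sorting, and 27.7% of the 31-base words in the canonical BMI1 transcript are shared with it. Its estimated counts are therefore uncertain, as is their split from BMI1. COMMD3-BMI1 had 5.41, 11.2 and 7.94 CPM in controls, 11.5, 11 and 11.7 with decitabine, and 6.74, 12.1 and 9.36 with the combination, and was not called in any of the 3 comparisons. COMMD3 itself had a mean of 81.1 ± 2.89 CPM in controls, 106 ± 7.43 in decitabine libraries and 138 ± 4.86 in combination libraries (SD, n = 3 each), and it was called higher in all 3 comparisons. Its log2 fold change between the treatments was 0.37 (SE 0.07, edgeR adjusted p = 0.0044), of the same sign as that of BMI1. With the read-through counts added to BMI1, the difference between the treatments was 0.25 (edgeR adjusted p = 0.023) and those against control were -0.10 (0.17) and 0.14 (0.071).

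**Figure D4:**
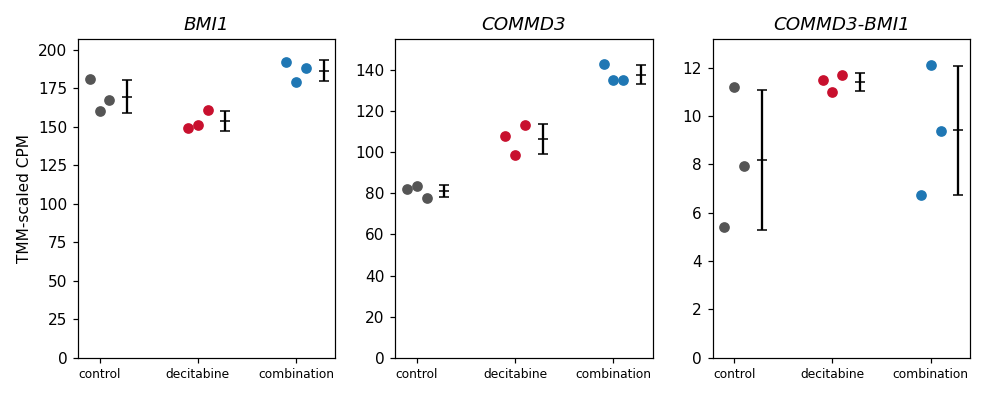
TMM-scaled CPM (vertical axes, from 0) of BMI1, COMMD3 and the read-through gene COMMD3-BMI1 in the 9 libraries, with mean and SD of each group as bars. COMMD3 is higher in each group from control to decitabine to the combination, BMI1 is highest in the combination at 179 to 192 CPM, and COMMD3-BMI1 stays at or under 12.1 CPM.

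The CBX subunits read the methylated H3 that PRC2 leaves, and each canonical PRC1 holds 1 of them. CBX2 (ENSG00000173894, chromosome 17, 79778148 to 79787983, plus strand) measured 64.1, 60.7 and 67.8 CPM in controls, 40.7, 36.1 and 35.3 with decitabine, and 44.4, 45.7 and 39.9 with the combination. Treated libraries were all below the controls, and the treated groups overlapped by 1 library each. The log2 fold change was -0.78 (SE 0.08, edgeR adjusted p = 1.4e-06) with decitabine and -0.57 (SE 0.08, edgeR adjusted p = 3.1e-05) with the combination. The difference between the treatments was 0.21 (SE 0.08, edgeR adjusted p = 0.099), and 0.27 (adjusted p = 0.038) without combination library 3. CBX7 (ENSG00000100307, chromosome 22, 39120167 to 39152680, minus strand) went the other way, with 14.7, 13.6 and 15.4 CPM in controls, 17.2, 18.3 and 20.3 with decitabine, and 16.6, 16.3 and 18.4 with the combination. Its libraries were all higher after treatment. It rose with decitabine, with a log2 fold change of 0.35 (SE 0.10, edgeR adjusted p = 0.0061), and its 0.23 with the combination (SE 0.10) did not pass (edgeR adjusted p = 0.055). Among other settings, the latter was called with DESeq2 size factors (adjusted p = 0.046), with library size alone (0.0017), with a filter on a mean of at least 10 counts (0.043), with only the 6 libraries compared (0.045) and without decitabine library 3 (0.047). The change of CBX7 with the combination was also called when the replicate number was added to the fit. The ratio of CBX2 to CBX7 per kilobase, chosen after their values were seen and not tested, was 3.88, 3.95 and 3.9 in controls, 2.1, 1.75 and 1.55 with decitabine, and 2.38, 2.49 and 1.92 with the combination.

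Compared per kilobase of the canonical transcript, the members differed widely in controls. BMI1 was highest at 47.8 ± 3.02 CPM per kilobase (SD, n = 3), followed by EZH2 at 26 ± 0.359 and RING1 at 19.6 ± 0.962. SUZ12 at 14.9 ± 0.801 and CBX2 at 13.9 ± 0.767 overlapped, and EED stood at 6.98 ± 0.418. RNF2 at 4.2 ± 0.183 overlapped with EZH1 at 3.97 ± 0.225, which overlapped with CBX7 at 3.54 ± 0.221, and JARID2 was lowest at 2.4 ± 0.153, without overlap. With decitabine RING1, at 17.7 CPM per kilobase, stood above EZH2, at 14.6, and EZH1, at 1.59, took the lowest place. With the combination RING1 at 18.5 and EZH2 at 17.2 overlapped, and EZH1 was again lowest at 1.57. This order depends on the length used: per kilobase of all exons merged, EZH2 ranked 5 instead of 2 and EED 9 instead of 6 in controls, while BMI1 stayed at 1 and SUZ12 at 4.

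The genes with a pattern most like that of EZH2 across the 9 libraries were RNASEH2A (Pearson r = 0.9963), RIOX2 (0.9958), EIF2B3 (0.9941), MAIP1 (0.994) and KCNMA1 (0.9937). The search covered 13632 genes whose mean count was 50 or more. For CBX7 they were COL4A6 (0.9787), TICAM1 (0.9727), ABTB2 (0.9716), WDFY1 (0.9707) and TOB2 (0.9696). Among the members, CBX2 was most like EZH2 at 0.986, and CBX7 ran opposite to EZH2 at -0.92. These values describe 9 libraries in 3 groups, so the points share their treatment, and they carry no p.

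The other subunits of PRC2 moved in both directions, in numbers near the shares of all genes given above. Of 9 genes, all tested, 4 were higher and 2 lower with decitabine and also with the combination (median log2 fold change 0.07 and 0.14, beside 0.03 and 0.05 for all genes). The 4 higher include EZHIP, which had enough counts to be tested only in treated libraries and so could not be called lower against control. Between the treatments 0 were called by edgeR, with TMM and also with DESeq2 size factors. At an unadjusted p under 0.05 with TMM, 2 were higher and 1 lower there. With library size as the only scaling 7 were higher and 2 lower with decitabine, and 6 and 2 with the combination. PHF19, which brings PRC2 to chromatin, had 172, 157 and 148 CPM in controls, 66.2, 62.3 and 52.5 with decitabine, and 80.8, 76.2 and 61 with the combination. It fell by 1.39 on the log2 scale with decitabine (SE 0.11, edgeR adjusted p = 1.4e-07) and by 1.13 with the combination (edgeR adjusted p = 1e-06). RBBP7, a histone chaperone found in PRC2 and other complexes, had a log2 fold change of -0.87 (SE 0.07, edgeR adjusted p = 6.9e-08) with decitabine. EPOP, a subunit of a variant form of PRC2, rose with both treatments. Its libraries had 23.3, 22.4 and 24.4 CPM in controls, 47.7, 51.9 and 54.6 in decitabine-treated and 52.8, 54 and 52.6 in combination-treated cells, with log2 fold changes of 1.14 and 1.18 (edgeR adjusted p = 1.7e-08 and 1.1e-08). EZHIP, an inhibitor of EZH2 that is normally restricted to germ cells, had 0 counts in all 3 controls. It had 12, 16 and 12 counts with decitabine and 13, 23 and 15 with the combination, at least 11.3-fold and at least 14.8-fold higher against a floor of 3 counts over the control group. The floor covers counting error only, and EZHIP stayed near 1 CPM or under in all libraries.

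Of 25 other genes of PRC1 and its variant forms, 24 were tested, and AUTS2 had too few counts. Among all genes tested, 36.3% were higher and 32.5% lower with decitabine, and 35.9% and 31.3% with the combination. Of the PRC1 genes, 5 were higher and 14 lower with decitabine (median log2 fold change -0.25, beside 0.03 for all genes). With the combination 5 were higher and 9 lower (median -0.11, beside 0.05 for all genes). Under library size alone these counts were 8 and 7, with a median of -0.00582, and 10 and 7, with a median of 0.11. The largest changes with decitabine were in SCMH1 (log2 fold change -1.16, edgeR adjusted p = 1.9e-07), L3MBTL2 (-1.06, 4.7e-08), CBX6 (-0.98, 7.6e-08) and PHC1 (-0.95, 3.1e-06). SCMH1 and PHC1 belong to the part of PRC1 that joins complexes together, CBX6 is another reader of methylated H3, and L3MBTL2 belongs to a variant complex. Between the treatments 2 were higher and 2 lower, against 7.67% and 8.02% of all genes. YAF2, a subunit of variant PRC1, measured 11.4, 10.6 and 11.8 CPM with decitabine and 16.3, 16.8 and 15.6 with the combination (log2 fold change 0.53, edgeR adjusted p = 0.0051), and its controls lay between these groups, at 15.5, 13.1 and 13.4 CPM. L3MBTL2 measured 28.5, 27.1 and 27.2 CPM with decitabine and 20.7, 20 and 23.4 with the combination (log2 fold change -0.37, edgeR adjusted p = 0.0097), both far below its controls. CBX8, a further CBX reader, was higher with the combination than with decitabine (0.35, edgeR adjusted p = 0.028) and PCGF5, a relative of BMI1, lower (-0.34, edgeR adjusted p = 0.027).

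**Figure D5:**
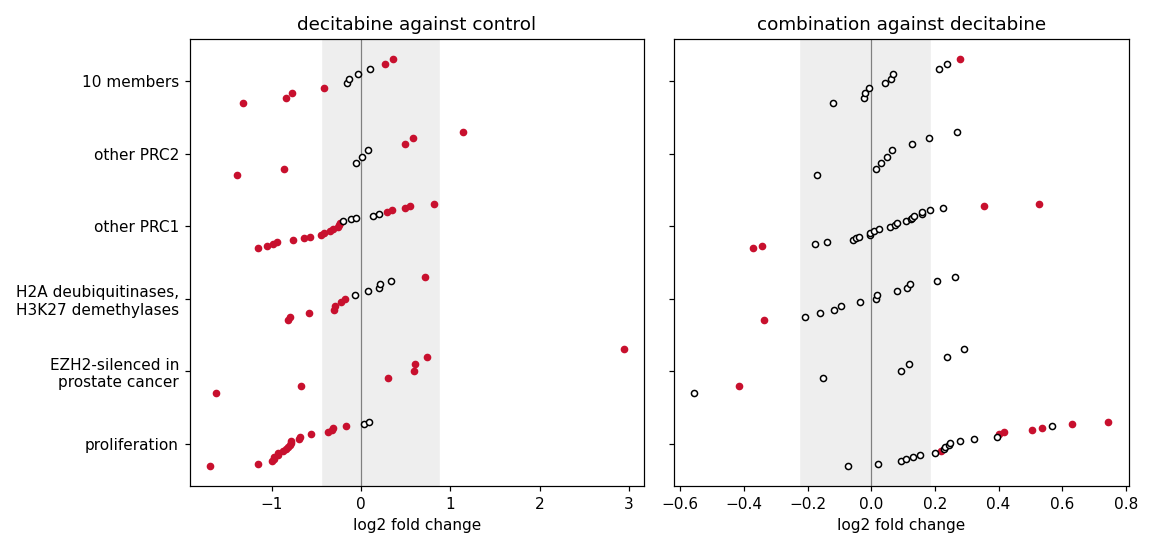
Log2 fold changes (horizontal axes) of the 10 members and of each related gene list, with decitabine against control on the left and the combination against decitabine on the right. Filled red points are genes called, open points are the others, the shaded band spans the middle quartiles of all genes tested, and EZHIP is left out because its controls have no counts. Proliferation genes lie mostly left of 0 on the left and right of 0 on the right, and the largest value is that of CDH1 at 2.94.

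Of 13 genes for enzymes and cofactors that remove the Polycomb marks from H2A and H3, 1 was higher and 7 were lower with decitabine (median log2 fold change -0.18). Of all genes, 36.3% were higher and 32.5% lower there. With the combination 1 was higher and 5 were lower (median -0.04), against 35.9% and 31.3% of all genes. Between the treatments 0 were higher, or 2 at an unadjusted p under 0.05, and 1 was lower, MBD5 (-0.34, edgeR adjusted p = 0.048). The shares of all genes there were 7.67% and 8.02%. Under library size alone the first 2 counts became 5 higher and 3 lower in each comparison with control. The gene that rose was KDM6B, a demethylase of lysine 27 of H3, which measured 14.6, 12.6 and 14.6 CPM in controls, 19.8, 22.6 and 26 with decitabine, and 18.3, 22 and 23.8 with the combination (log2 fold change 0.72 with decitabine, edgeR adjusted p = 0.00013, and 0.62 with the combination, edgeR adjusted p = 0.00047). The largest falls with decitabine were those of MBD6 (-0.82, edgeR adjusted p = 2.2e-06), MBD5 (-0.80, 9.2e-06) and ASXL2 (-0.58, 0.00014), all partners of the deubiquitinase BAP1. BAP1 itself was not called (-0.07, edgeR adjusted p = 0.33).

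Of 10 genes listed here as candidates for silencing by EZH2, 7 were tested. With decitabine 5 were higher and 2 lower, against 36.3% of all genes higher and 32.5% lower. With the combination 4 were higher and 2 lower, against 35.9% and 31.3% of all genes, or 5 and 1 under library size alone. CDH1, the adhesion protein of epithelial cells, had 1.84, 2 and 1.78 CPM in controls, 13.6, 14.5 and 14.9 with decitabine, and 15.2, 18 and 17.6 with the combination, with log2 fold changes of 2.94 (SE 0.13, edgeR adjusted p = 3e-10) and 3.17 (SE 0.13, edgeR adjusted p = 1.4e-10). SLIT2, a secreted guidance protein, had a log2 fold change of 0.74 (edgeR adjusted p = 1.8e-05) with decitabine. VASH1, an inhibitor of vessel growth, and CDKN2A, which encodes cell-cycle inhibitors, changed in the other direction, at -1.63 (edgeR adjusted p = 6.3e-05) and -0.67 (edgeR adjusted p = 0.00039). Not every gene of this list was silent in controls, where CDKN2A had 175 ± 35.3 CPM and TIMP2 299 ± 50 CPM (SD, n = 3 each). MSMB had 0 counts in all libraries, and CNR1 and TIMP3 had 1 count each in controls, 16 and 7 with decitabine and 16 and 3 with the combination. No histone mark was measured, so these counts do not show what PRC2 did at these genes.

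The proliferation genes moved mostly in 1 direction. Beside the 20 of 22 lower with decitabine, 15 were lower and 2 higher with the combination. Of all genes, 31.3% were called lower and 35.9% higher there. Between the treatments 7 were higher and 0 lower, or 11 and 0 at an unadjusted p under 0.05. The shares of all genes called there were 7.67% higher and 8.02% lower. Under library size alone 16 genes of the list were lower and 0 higher with decitabine, and 12 lower and 4 higher with the combination. Between the treatments 6 were higher and 0 lower under that scaling. PLK1, a kinase of mitosis, fell by 1.69 on the log2 scale with decitabine (edgeR adjusted p = 1.1e-08) and was 0.74 higher with the combination than with decitabine (edgeR adjusted p = 0.0012). TOP2A, which untangles DNA, had a log2 fold change of -1.15 with decitabine (edgeR adjusted p = 3.5e-06), MCM7, of the replicative helicase, -1 (5.4e-06), and RRM2, which makes deoxynucleotides, -0.98 (2.8e-07). The 2 genes of this list called higher with the combination against control were E2F1 (0.235, edgeR adjusted p = 0.0072) and E2F2 (0.656, 0.011). With decitabine E2F1 was called lower (-0.167, edgeR adjusted p = 0.043) and E2F2 was not called. Between the treatments E2F8 (0.63, edgeR adjusted p = 0.025), CCNE2 (0.54, 0.0065) and CDK1 (0.51, 0.0021) were higher with the combination, as was PLK1. Of 800 tested genes with the E2F letters in a promoter, 45.6% were lower and 25.1% higher with decitabine, whereas of 12066 genes with a promoter entry and no match 35.6% were lower and 35.1% higher. Between the treatments 11.8% of the 800 were higher and 6.0% lower, against 8.39% and 8.25% of the others. These shares are given as a description without a test.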

How the data were processed

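RNA of 9 PC-3 libraries was sequenced on the BGISEQ-500. The authors deposited estimated counts for each Ensembl identifier, without normalization, made with Trim Galore 0.6.4 and kallisto and related to GRCh38.p13 per the submitters' notes. Here, counts were rounded, and edgeR 4.0.16 (R 4.3.3) was run on the 18532 genes that filterByExpr keeps (TMM, robust quasi-likelihood fit, 1 mean per group over all 9 libraries, common dispersion 0.00977), and p-values were adjusted over all genes. Groups and replicate numbers came from the labels and doses from the methods. Members and lists were chosen with earlier results of these data known. Named genes were all members, up to 4 called genes of each list with the largest change with decitabine and between the treatments, and members without counts. BAP1 was added for its relation to named genes, and E2F1, E2F2 and TIMP2 for the reading of their lists. Some results on single genes that the rule would name are left out. Symbols were matched for 60357 of 60617 identifiers. Gene positions, overlaps and transcript lengths came from GENCODE on GRCh38 and promoters from RefSeq. The test was tested on simulated data with changed genes. The chi-square per degree of freedom between libraries of a group was 5.86 to 23.5, so none was counted as a copy. Alternatives were DESeq2 1.42.0 or its size factors, no TMM, voom with limma 3.58.1, other filters, a fit to 6 libraries, a block for the replicate number, a threshold of 1 on the log2 fold change and leaving out each library. Sums with overlapping genes were added after seeing the data.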

Additional observations from a re-analysis of the deposited data

How the results depend on the processing

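Compared with 2 members higher and 4 lower with decitabine, 1 was higher without a filter, and 0 higher and 1 lower with a threshold of 1 on the log2 fold change. With the combination, where 1 was higher and 4 lower, 2 were higher with DESeq2 size factors, with a mean of at least 10 counts, with only the 6 libraries compared and with a block for the replicate number, 4 with library size alone and 0 without a filter, and with the threshold of 1 there were 0 higher and 1 lower. Between the treatments 2 were higher with the block and 0 with the threshold of 1. With that threshold 5347, 5178 and 397 genes were called in the 3 comparisons instead of 12759, 12446 and 2908. Without single libraries, members higher ranged from 1 to 2 with decitabine, from 0 to 2 with the combination and from 0 to 3 between the treatments, and genes called between the treatments from 861 to 4063, with 1783 without decitabine library 1, 1004 without decitabine library 2, 1364 without combination library 1 and 861 without combination library 2. Signs turned with library size alone for JARID2 0.21, RING1 0.0913 and BMI1 0.11 with decitabine and for JARID2 0.18 and RING1 0.14 with the combination, and without a filter for JARID2 0.000908 between the treatments. Without single libraries the log2 fold change of JARID2 with decitabine ranged from -0.0965 to 0.021, and between the treatments those of EZH1 from -0.0854 to 0.0368, RNF2 from -0.0845 to 0.0403, JARID2 from -0.0851 to 0.0411, SUZ12 from -0.0317 to 0.0951 and EED from -0.0339 to 0.122. The cause of these changes was not tested, except that a threshold on the fold change leaves fewer calls by construction. Whether the replicate numbers pair the libraries was not settled. Deviations of same-numbered libraries correlated between -0.0333 and 0.102 from control to treated groups. Between the treated groups the correlations were 0.294 for number 1, 0.0432 for number 2 and 0.292 for number 3. Of 9 libraries, 7 correlated best with 1 of their own number. With the block 12945, 12673 and 3656 genes were called. Among them were EZH2 between the treatments (0.24, edgeR adjusted p = 0.036) and CBX7 with the combination (0.23, 0.035). The standard error of the log2 fold change with decitabine was 0.07 for BMI1, the member with the most counts, and 0.11 for EED. Without a filter the 2 calls of RNF2 against control were lost.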
